A study of Mus musculus with 9 samples.

Results

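The genes described here are solute carriers of the plasma membrane and of intracellular vesicles, taken as every probe whose platform gene symbol is Slc, a family number, the letter a and a member number. Families Slc1, Slc3, Slc6, Slc7, Slc11, Slc12, Slc25, Slc30, Slc38, Slc39 and Slc40 were left out, which removed 120 genes, most of them carriers of amino acids, chloride salts, mitochondrial substrates, zinc and iron. The rule found 242 of 25697 probes and 172 of 16593 named genes. A further 45 symbols beginning with Slc but written in another form, among them the Slco genes and Slc35b to Slc35g, lay outside the rule.

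Solute carriers move small molecules across membranes, either down a gradient or coupled to sodium, protons or an exchanged ion. Plasma membrane members set the entry of sugars, vitamins, phosphate, copper and lipids and the exit of acids and bicarbonate, while others empty lysosomes or load the Golgi with nucleotide sugars. In salivary glands, exchange of chloride for bicarbonate and of sodium for protons takes part in fluid secretion.

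The cells were salivary gland cancer stem cells of C57BL/6 mice, taken from primary material and grown in serum replacement medium. They received LF3 for 24 h, ICG-001 for 24 h, or the solvent DMSO for 24 h, with 3 bead arrays a group and 9 in all. As background, LF3 disrupts the complex of β-catenin with TCF4, whereas ICG-001 disrupts that of β-catenin with CBP, a coactivator. The labels give no dose, and they do not say whether the 3 arrays of a group came from separate cultures, so each p-value measures the spread between these arrays, which may be technical.

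The mean array signal ran from 340 to 396.5 for LF3, 368.3 to 409.4 for ICG-001 and 398.2 to 467.3 for DMSO, and 38.7% to 42.4% of all probes were detected per array. The third LF3 array and the first DMSO array stood farther from their group means than the others, with residual SDs of 0.237 and 0.234 against 0.152 to 0.197. Of the epithelial markers on the array, 7 of 8 were detected nowhere, and the remaining one, Krt8, was dim. The salivary acinar markers Aqp5 and Slc12a2 were measured, and the other 4 on the array were not detected. Aqp5 averaged 11.61 with LF3, 11.10 with ICG-001 and 11.82 with DMSO, a fall of 0.72 with ICG-001 (limma adjusted p = 0.000423). Slc12a2 averaged 10.02 with LF3, 10.69 with ICG-001 and 10.32 with DMSO, a rise of 0.38 with ICG-001 (adjusted p = 0.0282). Summed acinar intensities were 4040 to 4524 with LF3, 3801 to 4076 with ICG-001 and 4468 to 5442 with DMSO. All 4 leukocyte and all 4 endothelial markers were undetected, with summed leukocyte intensities of 83.56 to 94.47 with LF3, 84.31 to 87.98 with ICG-001 and 86.86 to 91.2 with DMSO. The mesenchymal marker Vim averaged 11.98 with LF3, 12.18 with ICG-001 and 12.67 with DMSO on the log2 scale. It fell by 0.69 with LF3 (adjusted p = 0.00139) and by 0.49 with ICG-001 (adjusted p = 0.00525). Cdh2, the other mesenchymal marker on the array, was not detected. Of 5 fibroblast markers on the array, Pdgfra and Col1a1 were measured, and Col1a1 was not above background on any ICG-001 array. Col1a1 stood at -1.32 with ICG-001 (adjusted p = 0.00032), a size that background limits, and at -0.47 with LF3 (adjusted p = 0.129). Pdgfra passed with neither inhibitor. Summed fibroblast intensities were 182.6 to 229.5 with LF3, 190.5 to 198.7 with ICG-001 and 207.4 to 281.1 with DMSO. The part of these shifts in the carrier values below was not tested, and in these bulk samples fewer cells of a type and less RNA per cell cannot be told apart.

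A gene was taken as measured when a probe for it was detected at p under 0.01 on at least 3 of the 9 arrays. That held for 46 of the 172 carriers (26.7%), against 44.3% of all named genes. Of the other 126, 119 were detected on no array, and Slc4a8, Slc16a10, Slc27a6, Slc31a2, Slc37a4, Slc46a1 and Slc52a3 on 1 or 2. The measured carriers included 38 that were detected on all 9 arrays, and no carrier was measured through detection in 1 group alone. Both common proton-coupled lactate carriers were among the undetected, with 1 probe for Slc16a1 and 3 probes for Slc16a3 above background nowhere, as was the inositol carrier Slc5a3. The proton-coupled folate carrier Slc46a1 was detected on 2 arrays and the glucose-6-phosphate carrier Slc37a4 on 1.

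Carriers of nucleosides, folate, haem and vitamins gave the most measured genes, 8 of 20 on the array. Carriers of sugars, inositol and vitamins followed with 7 of 25, and carriers of organic ions, bile acids and drugs with 6 of 24. The class of vesicle and lysosome families gave 2 of 21, and other measured members known from lysosomes or the Golgi, such as Slc48a1, Slc46a3 and the Slc35a genes, stand in other classes. By the F test among the 3 groups 26 of the 46 measured carriers passed, beside 52.2% of all genes. In at least 1 comparison 27 of the 46 measured carriers passed the test, beside 57% of all genes, and 19 passed in none.

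**Figure D1:**
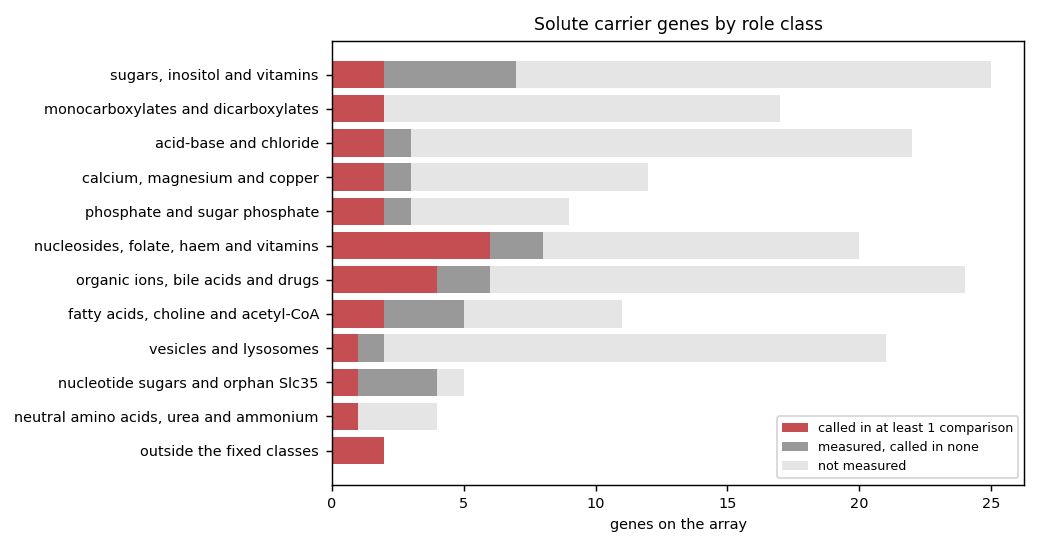
Number of solute carrier genes (horizontal axis) in each role class, split into those called in at least 1 comparison, those measured but called in none, and those not measured. Nucleoside, folate, haem and vitamin carriers had the most called genes, 6 of 8 measured, beside 57% of all genes called in at least 1 comparison. Of 21 vesicular and lysosomal carriers 2 were measured.

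Promoter windows are shown for Slc4a2, Slc20a1 and Slc22a23, the carriers that passed the test against DMSO with each inhibitor. Each runs 5′ to 3′ from 250 bases before to 50 bases after an annotated start (RefSeq, GRCm38.p6). The letters searched on both strands were CTTTGA and CTTTGT, the core of the site bound by TCF factors, ACGTG, the core of the hypoxia response element, and CACGTG, the E-box, which contains ACGTG. Capitals mark CTTTGT and CACGTG matches. The Slc4a2 windows are chr5:24424982-24425281 and chr5:24425594-24425893 on the plus strand, those of Slc20a1 are chr2:129198523-129198822 and chr2:129206846-129207145 on the plus strand, and that of Slc22a23 is chr13:34345169-34345468 on the minus strand.
Slc4a2, upstream start: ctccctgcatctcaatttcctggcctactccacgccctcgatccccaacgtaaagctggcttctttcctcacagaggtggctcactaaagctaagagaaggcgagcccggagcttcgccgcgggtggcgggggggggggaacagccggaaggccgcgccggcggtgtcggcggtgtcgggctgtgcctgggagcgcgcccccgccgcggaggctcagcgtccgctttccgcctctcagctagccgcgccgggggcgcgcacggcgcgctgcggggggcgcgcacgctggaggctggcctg
Slc4a2, downstream start: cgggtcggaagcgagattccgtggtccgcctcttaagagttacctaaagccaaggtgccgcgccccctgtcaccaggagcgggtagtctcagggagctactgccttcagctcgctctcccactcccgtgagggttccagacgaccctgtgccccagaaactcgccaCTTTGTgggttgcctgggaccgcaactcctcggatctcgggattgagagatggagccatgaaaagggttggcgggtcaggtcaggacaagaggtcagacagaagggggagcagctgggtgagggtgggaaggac
Slc20a1, upstream start: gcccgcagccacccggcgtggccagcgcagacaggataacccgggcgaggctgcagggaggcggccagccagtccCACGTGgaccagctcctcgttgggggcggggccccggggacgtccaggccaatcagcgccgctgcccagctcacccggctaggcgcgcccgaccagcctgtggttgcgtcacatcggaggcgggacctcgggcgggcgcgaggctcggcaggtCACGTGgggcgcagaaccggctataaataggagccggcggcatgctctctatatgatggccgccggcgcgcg
Slc20a1, downstream start: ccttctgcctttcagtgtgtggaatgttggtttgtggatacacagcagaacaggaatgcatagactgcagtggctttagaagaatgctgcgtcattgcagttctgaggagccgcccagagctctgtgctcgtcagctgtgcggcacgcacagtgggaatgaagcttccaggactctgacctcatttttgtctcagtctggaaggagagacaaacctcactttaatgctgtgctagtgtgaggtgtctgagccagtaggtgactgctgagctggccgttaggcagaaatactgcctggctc
Slc22a23: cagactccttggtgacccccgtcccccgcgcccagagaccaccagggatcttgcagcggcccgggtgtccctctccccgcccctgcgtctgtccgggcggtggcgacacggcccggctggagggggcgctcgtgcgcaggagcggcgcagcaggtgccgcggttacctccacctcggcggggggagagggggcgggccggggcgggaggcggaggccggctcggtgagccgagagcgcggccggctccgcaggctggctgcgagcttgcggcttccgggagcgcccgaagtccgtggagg
The downstream Slc4a2 window held CTTTGT, the upstream Slc20a1 window held CACGTG at 2 places, and the other windows shown held none of these letters. Of 31 carriers named by the rule, 23 had a window that was read, and Slc16a6 and Slc14a1 were among those without one. Over the 38 promoters of these 23 carriers, CTTTGA and CTTTGT were each present in 7.89%, against 16% and 18.7% of all 32851 promoters. ACGTG was present in 21.1% of the carrier promoters, against 19.6% of all, and CACGTG in 10.5%, against 7.15%. These shares describe letters in the windows and were not tested.

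LF3, known to disrupt the β-catenin and TCF4 complex, was compared with DMSO to see which carriers differ after 24 h. The state of that complex in these cells was not measured on the arrays. Of the 46 measured carriers 11 (23.9%) passed limma's test at an adjusted p under 0.05, beside a background of 22.2% of 7354 genes. The 5 that rose (10.9%, background 10.9%) were the ascorbate carrier Slc23a2, the ergothioneine carrier Slc22a4, the phosphate carrier Slc20a1, the endolysosomal haem carrier Slc48a1 and Slc10a7. The 6 that fell (13%, background 11.3%) were the bicarbonate exchanger Slc4a2, Slc66a1, Slc22a23, Slc2a6, Slc19a2 and Slc35a4. No change reached 2-fold, while 1.43% of all genes were called at that size or more. Groups did not overlap for 18 carriers (39.1%), beside 36.8% of all genes, and the median log2 difference was 0.01 for the carriers and 0.01 for all genes.

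The split of higher and lower calls depended on the scaling. When arrays were scaled to their medians in place of quantile normalization, the median of all genes moved to -0.24 on the log2 scale and that of the carriers to -0.20, and 0 carriers were called higher and 15 lower, with 31.9% of all genes called. Without the third DMSO array 6 solute carrier genes were called, beside 12.5% of all genes, and without the second LF3 array 6, beside 13.9%. Without the second DMSO array 7 were called, beside 12% of all genes.

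ICG-001, known to disrupt the β-catenin and CBP complex, was compared with DMSO to see which carriers differ after 24 h. That complex was not measured either. Here 16 of the 46 measured carriers (34.8%) passed, beside a background of 37.6% of all genes. The 10 that rose (21.7%, background 18.7%) included Slc16a6, of the monocarboxylate carrier family, the folate carrier Slc19a1, Slc4a2 and the fatty acid carrier Slc27a1. The phosphate carriers Slc20a1 and Slc20a2 were also among them. The 6 that fell (13%, background 18.9%) were Slc22a23, the lysosomal carrier Slc46a3, the copper carrier Slc31a1, the sodium-calcium exchanger Slc8a1, the multivitamin carrier Slc5a6 and the urea carrier Slc14a1. Slc16a6 and Slc19a1 were called at 2-fold or more, as were 5.21% of all genes. Groups did not overlap for 20 carriers (43.5%), beside 50.7% of all genes, and the median log2 difference was 0.09 for the carriers and -0.01 for all genes. Scaling to array medians left 8 solute carrier genes higher and 6 lower, beside 32.4% of all genes called, with the median of all genes at -0.10.

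LF3 was also set directly against ICG-001. Between them 22 of the 46 carriers (47.8%) passed, beside 39.7% of all genes, 9 of them higher with LF3 (19.6%, background 20.2%) and 13 lower (28.3%, background 19.5%). The differences reached 2-fold for Slc4a2, Slc16a6, Slc19a1 and Slc10a3, all lower with LF3, beside 4.17% of all genes called at that size. Groups did not overlap for 26 carriers (56.5%), beside 51.6% of all genes, and the median log2 difference was -0.11 for the carriers and 0.00 for all genes. Scaling to array medians left 3 solute carrier genes higher and 18 lower, beside 36.4% of all genes called, with the median of all genes at -0.14. Among the measured carriers, standard errors ran from 0.11 for Slc50a1 to 0.22 for Slc33a1 on the log2 scale, alike in each comparison.

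**Figure D2:**
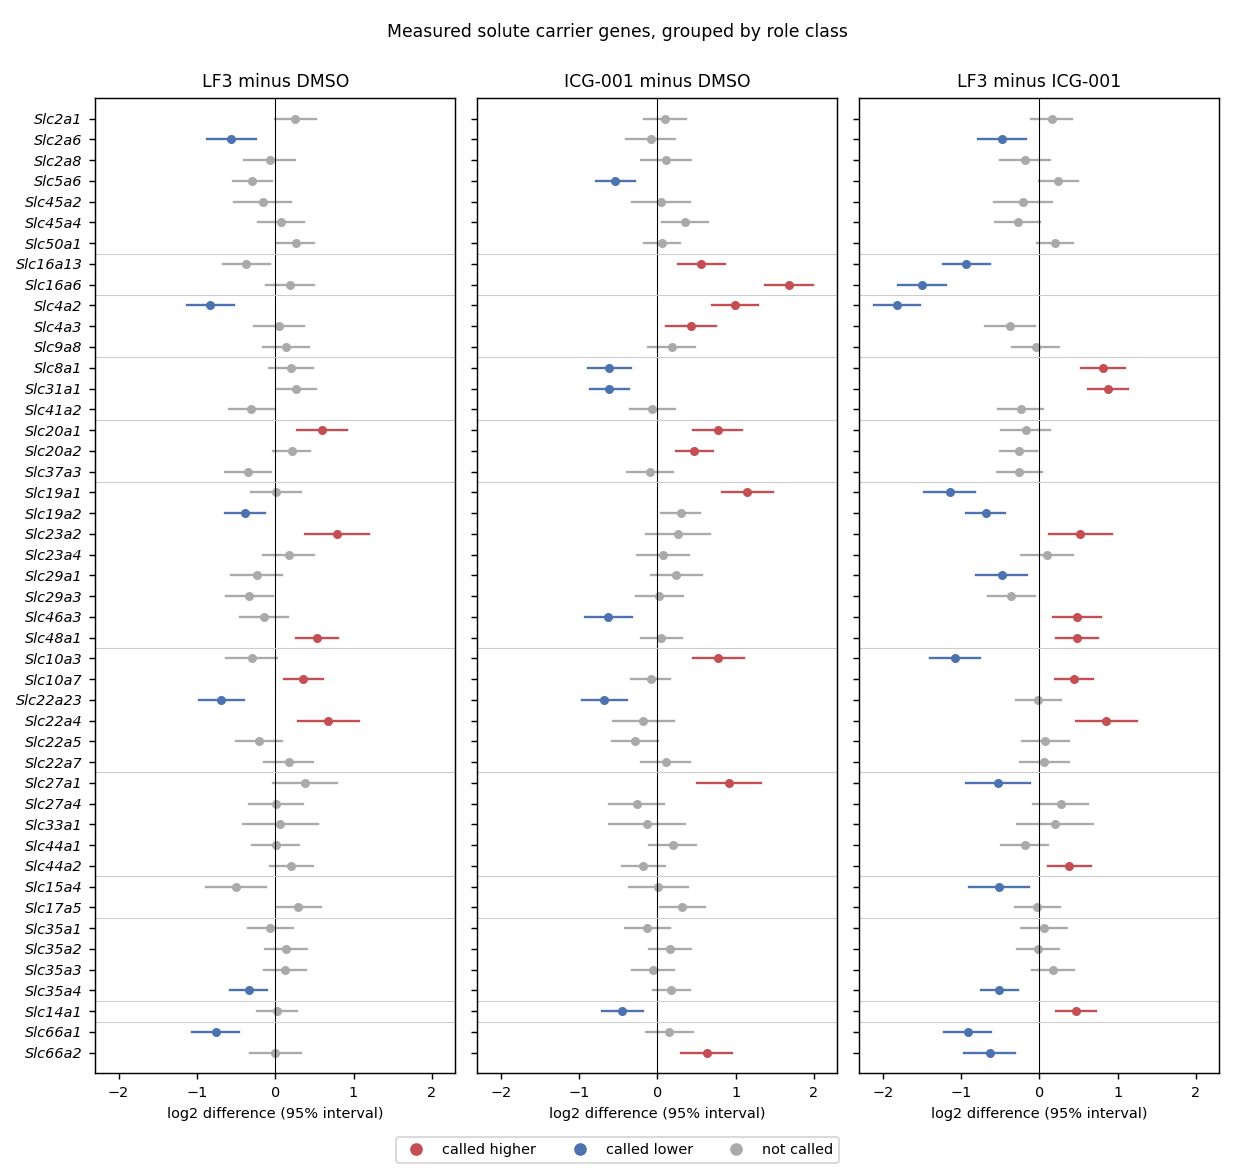
Fitted log2 difference (horizontal axis, with its 95% interval) of each of the 46 measured solute carriers, in role order, for LF3 minus DMSO, ICG-001 minus DMSO and LF3 minus ICG-001. Colours mark genes called higher or lower, and Slc4a2 is lower with LF3, higher with ICG-001 and the farthest below 0 between the inhibitors.

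Among the acid and base carriers, Slc4a2 encodes the anion exchanger AE2, which trades intracellular bicarbonate for chloride at the basolateral side of secretory epithelia. Its normalized log2 intensity was 8.045, 8.385 and 8.198 on the LF3 arrays, 9.964, 10.118 and 10.003 on the ICG-001 arrays, and 9.303, 8.893 and 8.919 on the DMSO arrays. All LF3 arrays lay below all DMSO arrays and all ICG-001 arrays above them, although the first DMSO array was higher than its group. Slc4a2 fell by 0.83 with LF3 (limma adjusted p = 0.00116) and rose by 0.99 with ICG-001 (adjusted p = 9.64e-05), both against the same DMSO arrays. Between the inhibitors the log2 difference was -1.82 (adjusted p = 8.65e-07), a level 3.53-fold lower with LF3. It was the 1 carrier called in opposite directions by the inhibitors, as were 1.7% of all genes. All these calls held under every alternative run, with LF3 minus DMSO between -1.13 and -0.70 and ICG-001 minus DMSO between 0.88 and 1.13.

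Slc4a3, the related anion exchanger AE3, read 5.98, 5.91 and 5.92 with LF3, 6.49, 5.97 and 6.49 with ICG-001, and 5.74, 6.07 and 5.84 with DMSO. The second ICG-001 array lay inside the DMSO range, so the groups overlapped although the ICG-001 rise of 0.43 passed (limma adjusted p = 0.0359). A second probe gave 0.15 (adjusted p = 0.424), and the call was lost without the first or the third ICG-001 array (adjusted p = 0.136 and 0.139) and without the first or the third DMSO array (0.103 and 0.0911). It was also lost with no background correction, median scaling, no filter on dim probes, array weights or both probes averaged (adjusted p = 0.0519 to 0.121). The sodium-proton exchanger Slc9a8, of the Golgi, differed by 0.14 with LF3 and 0.18 with ICG-001 and passed in neither comparison. Its second probe did pass with ICG-001, at 0.49 (adjusted p = 0.00754).

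Of the carriers of monocarboxylates and dicarboxylates, 2 of 17 on the array were measured. Both rose with ICG-001, as did 18.7% of all genes. Slc16a6, shown in zebrafish to export ketone bodies from the liver, stood at 6.65, 7.13 and 7.04 with LF3, 8.58, 8.41 and 8.31 with ICG-001, and 6.84, 6.59 and 6.83 with DMSO. The ICG-001 arrays lay above every other array, while the LF3 and DMSO arrays overlapped. Slc16a6 was 3.2-fold higher with ICG-001 than with DMSO, a log2 difference of 1.68 (limma adjusted p = 1.39e-06), the largest rise among the carriers. LF3 minus DMSO was 0.18 (adjusted p = 0.382), and LF3 minus ICG-001 was -1.49 (adjusted p = 6.14e-06). Both other Slc16a6 probes rose with ICG-001, by 1.23 and 1.65, and stood at -0.17 and -0.19 with LF3.

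Slc16a13, a dimmer member of the same family, was at 5.27, 4.94 and 5.08 with LF3, 6.09, 5.85 and 6.14 with ICG-001, and 5.40, 5.69 and 5.30 with DMSO. It was detected on 1 LF3 array, on 3 ICG-001 arrays and on 2 DMSO arrays, so its LF3 level lies near background. Every ICG-001 array was above every DMSO array and every LF3 array below every DMSO array. The ICG-001 rise of 0.56 passed (limma adjusted p = 0.00596), as did LF3 minus ICG-001 at -0.93 (adjusted p = 0.000192), while LF3 minus DMSO at -0.37 did not (adjusted p = 0.0745).

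**Figure D3:**
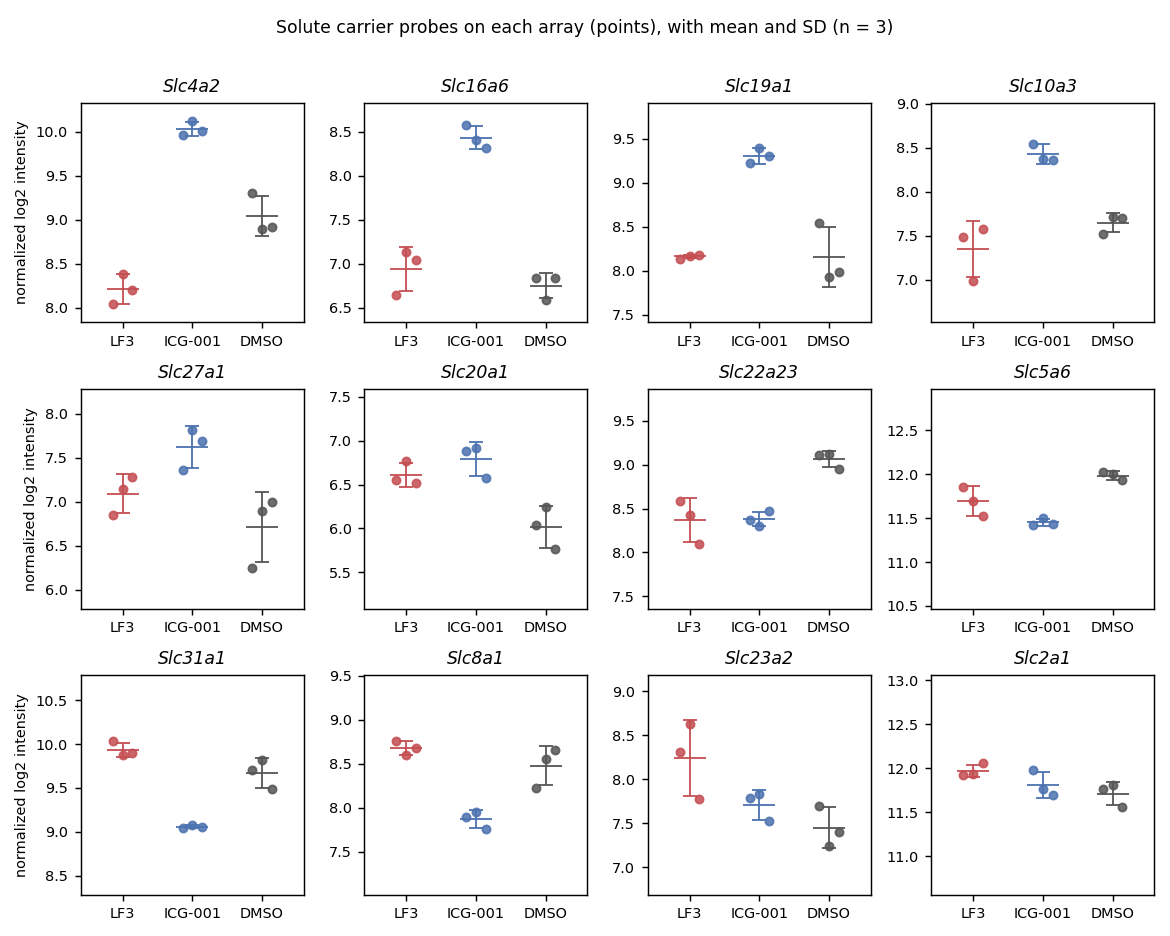
Normalized log2 intensity (vertical axis, each panel spanning 2.5 log2 units at its own level) of 12 solute carrier probes on each LF3, ICG-001 and DMSO array, as points with the mean and SD of 3 arrays. Slc16a6, Slc19a1 and Slc10a3 are high on the ICG-001 arrays alone, Slc31a1 and Slc8a1 are low there, and Slc22a23 is highest on the DMSO arrays.

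The measured folate and thiamine carriers of family 19 both differed between the inhibitors. Slc19a1, the reduced folate carrier that also takes up methotrexate, read 8.14, 8.16 and 8.17 with LF3, 9.22, 9.39 and 9.30 with ICG-001, and 8.54, 7.93 and 7.98 with DMSO. The ICG-001 arrays lay above all others, and the 3 LF3 arrays fell within the DMSO range, which the first DMSO array widened. It was 2.22-fold higher with ICG-001 than with DMSO, a log2 difference of 1.15 (limma adjusted p = 5.58e-05), and 2.21-fold lower with LF3 than with ICG-001 (adjusted p = 6.7e-05). LF3 minus DMSO was 0.01.

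Slc19a2, a thiamine carrier, stood at 9.59, 9.30 and 9.40 with LF3, 10.07, 10.12 and 10.15 with ICG-001, and 9.75, 9.91 and 9.80 with DMSO. The groups did not overlap, with LF3 lowest and ICG-001 highest. Slc19a2 fell by 0.39 with LF3 (limma adjusted p = 0.0309) and stood 0.30 higher with ICG-001, which did not pass (adjusted p = 0.0594). The difference between the inhibitors, -0.68, passed (adjusted p = 0.000488). The LF3 call was lost without the second or the third DMSO array (adjusted p = 0.112 and 0.0704) and without the second or the third LF3 array (0.111 and 0.0616).

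Slc5a6, the sodium-coupled carrier of biotin and pantothenate, was at 11.85, 11.70 and 11.52 with LF3, 11.42, 11.50 and 11.43 with ICG-001, and 12.02, 12.01 and 11.93 with DMSO. Every array of either inhibitor lay below every DMSO array. With ICG-001 the fall was 0.53 (limma adjusted p = 0.00273), and with LF3 the difference of -0.29 did not pass (adjusted p = 0.0891). LF3 minus ICG-001 was 0.24 (adjusted p = 0.115), so a difference between the inhibitors was not shown.

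The sodium-coupled ascorbate carrier Slc23a2 had the largest LF3 rise of the set. Its arrays read 8.31, 8.63 and 7.77 with LF3, 7.78, 7.83 and 7.52 with ICG-001, and 7.69, 7.24 and 7.40 with DMSO. LF3 arrays lay above all DMSO arrays, the third by little, and overlapped the ICG-001 arrays. LF3 minus DMSO was 0.79 (limma adjusted p = 0.0101), ICG-001 minus DMSO 0.27 (adjusted p = 0.296) and LF3 minus ICG-001 0.53 (adjusted p = 0.0404). The LF3 rise missed the threshold under median scaling (adjusted p = 0.0517), with no filter on dim probes (0.052) and without the second DMSO array (0.0518). The call between inhibitors was lost under median scaling, at 0.34 (adjusted p = 0.195), with no filter (0.143), without any 1 ICG-001 array (0.0571 to 0.141) and without the first or second LF3 array (0.101 and 0.185).

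Slc48a1, known for bringing haem out of endosomes and lysosomes, stood at 11.25, 11.46 and 11.54 with LF3, 10.82, 11 and 11 with ICG-001, and 10.99, 10.74 and 10.92 with DMSO. The LF3 arrays were above all others and the ICG-001 and DMSO arrays overlapped. Slc48a1 rose by 0.53 with LF3 (limma adjusted p = 0.00848) and was 0.48 higher with LF3 than with ICG-001 (adjusted p = 0.00757). Under median scaling these values were 0.32 and 0.36 and no longer passed (adjusted p = 0.115 and 0.0781).

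Slc46a3, a lysosomal carrier, read 8.36, 8.32 and 7.97 with LF3, 7.89, 7.59 and 7.70 with ICG-001, and 8.36, 8.53 and 8.17 with DMSO. Every ICG-001 array was below every LF3 and DMSO array. ICG-001 minus DMSO was -0.62 (limma adjusted p = 0.0037) and LF3 minus ICG-001 0.48 (adjusted p = 0.0155), the second of which was lost without the second ICG-001 array (0.0696) or either the first or second LF3 array (0.0614 and 0.0555), and under median scaling (0.192).

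Slc29a1, the equilibrative nucleoside carrier ENT1, was at 8.26, 8.02 and 8.67 with LF3, 8.86, 8.69 and 8.84 with ICG-001, and 8.43, 8.60 and 8.63 with DMSO. It passed against DMSO with neither inhibitor (-0.24 with LF3 and 0.24 with ICG-001), but the LF3 arrays lay below the ICG-001 arrays, by 0.48 on average (limma adjusted p = 0.0215). That call was lost without the first or the third ICG-001 array (adjusted p = 0.0661 and 0.0636) without the first or second LF3 array (0.0614 and 0.102) and with no filter on dim probes (0.0596). The lysosomal nucleoside carrier Slc29a3, at -0.33 with LF3 and 0.03 with ICG-001, and Slc23a4 passed in no comparison.

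Of the sodium-coupled phosphate carriers, the 2 that also serve as receptors for gammaretroviruses were measured. Slc34a1, Slc34a2 and Slc34a3 were detected on no array. Slc20a1 read 6.55, 6.77 and 6.51 with LF3, 6.88, 6.91 and 6.57 with ICG-001, and 6.04, 6.25 and 5.77 with DMSO. All arrays of both inhibitors were above all DMSO arrays. Slc20a1 rose by 0.60 with LF3 (limma adjusted p = 0.0115) and by 0.77 with ICG-001 (adjusted p = 0.00105), with the same DMSO arrays in both. LF3 minus ICG-001 was -0.18 (adjusted p = 0.366). The LF3 rise was 0.34 under median scaling (adjusted p = 0.125), and it missed the threshold without the third DMSO array (0.0608) or the second LF3 array (0.0506).

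Slc20a2 was at 9.88, 9.80 and 9.86 with LF3, 10.14, 10.16 and 10.03 with ICG-001, and 9.73, 9.53 and 9.65 with DMSO. The groups did not overlap, with DMSO lowest and ICG-001 highest. ICG-001 minus DMSO was 0.47 (limma adjusted p = 0.00416), LF3 minus DMSO 0.21 (adjusted p = 0.187) and LF3 minus ICG-001 -0.26 (adjusted p = 0.0741). Median scaling put the ICG-001 rise at 0.39 (adjusted p = 0.0646). Slc37a3, of the sugar phosphate carrier family, was called in no comparison, with -0.34 for LF3 (adjusted p = 0.0869).

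Of 3 measured carriers of calcium, magnesium and copper, Slc31a1 and Slc8a1 fell with ICG-001, as did 18.9% of all genes. Slc31a1, the high-affinity copper importer CTR1, stood at 10.03, 9.87 and 9.90 with LF3, 9.04, 9.08 and 9.06 with ICG-001, and 9.71, 9.82 and 9.48 with DMSO. The ICG-001 arrays were below all others, and the LF3 arrays were above all DMSO arrays. Slc31a1 fell by 0.61 with ICG-001 (limma adjusted p = 0.00126), and LF3 minus ICG-001 was 0.87 (adjusted p = 9.05e-05). LF3 minus DMSO, 0.26, did not pass (adjusted p = 0.129).

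Slc8a1, the plasma membrane sodium-calcium exchanger NCX1, read 8.76, 8.60 and 8.68 with LF3, 7.90, 7.95 and 7.76 with ICG-001, and 8.23, 8.55 and 8.65 with DMSO. Again the ICG-001 arrays lay below all others, and LF3 and DMSO overlapped. ICG-001 minus DMSO was -0.61 (limma adjusted p = 0.0023) and LF3 minus ICG-001 0.81 (adjusted p = 0.000311). The magnesium carrier Slc41a2 stood at -0.30 with LF3 and -0.06 with ICG-001 and passed in neither.

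Within the organic ion and bile acid families, Slc22a23 has no settled substrate. It was at 8.59, 8.43 and 8.10 with LF3, 8.37, 8.30 and 8.47 with ICG-001, and 9.11, 9.12 and 8.95 with DMSO. Every array of either inhibitor was below every DMSO array. Slc22a23 fell by 0.69 with LF3 (limma adjusted p = 0.0031) and by 0.68 with ICG-001 (adjusted p = 0.00142), measured against the same DMSO arrays. The difference between the inhibitors was -0.01, with a 95% interval from -0.30 to 0.28. Both falls held under every alternative run.

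Slc10a3, an orphan of the bile acid carrier family, read 7.48, 6.98 and 7.58 with LF3, 8.55, 8.37 and 8.36 with ICG-001, and 7.52, 7.72 and 7.71 with DMSO. The ICG-001 arrays were highest, and the LF3 and DMSO arrays overlapped. It rose by 0.78 with ICG-001 (limma adjusted p = 0.00122), stood at -0.30 with LF3 (adjusted p = 0.172) and differed by -1.08 between the inhibitors (adjusted p = 0.000112). Median scaling put LF3 minus DMSO for Slc10a3 at -0.59, which passed (adjusted p = 0.00943).

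Slc22a4, which carries ergothioneine and carnitine, stood at 6.29, 6.66 and 6.02 with LF3, 5.74, 5.53 and 5.14 with ICG-001, and 5.64, 5.85 and 5.46 with DMSO. The LF3 arrays were above all others, and 2 of 3 ICG-001 arrays detected the probe. Slc22a4 rose by 0.67 with LF3 (limma adjusted p = 0.0184) and was 0.86 higher with LF3 than with ICG-001 (adjusted p = 0.00223). The rise against DMSO was lost on leaving out the third DMSO array (adjusted p = 0.0763) or the second LF3 array (0.0844), with no filter on dim probes (0.0741) and under median scaling (0.0655).

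Slc10a7, also of the bile acid carrier family, read 6.95, 7.06 and 7.10 with LF3, 6.55, 6.67 and 6.56 with ICG-001, and 6.73, 6.78 and 6.54 with DMSO. Its LF3 arrays lay above all others. LF3 minus DMSO was 0.36 (limma adjusted p = 0.0394), and 0.43 by a second probe (adjusted p = 0.0243). This call was kept under 8 of 20 alternatives and was lost without any single array other than the first DMSO array (adjusted p = 0.0504 to 0.153). Under median scaling the difference was 0.07 (adjusted p = 0.772). Slc22a5 and Slc22a7 were called in no comparison.

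Among lipid carriers, Slc27a1 encodes FATP1, which takes up long-chain fatty acids. Its arrays were at 6.84, 7.14 and 7.28 with LF3, 7.36, 7.82 and 7.69 with ICG-001, and 6.25, 6.89 and 7.00 with DMSO. The ICG-001 arrays lay above all others, and the first DMSO array was the lowest of its group. Slc27a1 rose by 0.91 with ICG-001 (limma adjusted p = 0.00208), and LF3 stood between, at 0.38 above DMSO (adjusted p = 0.172) and -0.53 against ICG-001 (adjusted p = 0.0395). The call between inhibitors was lost without the second or the third ICG-001 array (adjusted p = 0.142 and 0.104) without the first or second LF3 array (0.147 and 0.0698) and with no filter on dim probes (0.141).

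Slc44a2, a choline carrier-like protein, was 0.38 higher with LF3 than with ICG-001 (limma adjusted p = 0.0297), and its other probes gave 0.34 (adjusted p = 0.151) and 0.33 (0.0738). Its arrays read 9.70, 9.88 and 9.54 with LF3, 9.38, 9.34 and 9.26 with ICG-001, and 9.69, 9.37 and 9.45 with DMSO. All LF3 arrays were above all ICG-001 arrays, and the DMSO arrays overlapped both. The call was lost without any 1 ICG-001 array (adjusted p = 0.0527 to 0.0981), without the first or second LF3 array (0.0633 and 0.118) and under median scaling (0.312). The fatty acid carrier Slc27a4, the choline carrier Slc44a1 and the acetyl-CoA carrier Slc33a1 were called in no comparison, with LF3 minus DMSO at 0.01, 0.01 and 0.07.

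Lysosomal members outside these groups were Slc66a1, Slc15a4 and Slc17a5, and Slc66a2 is given beside Slc66a1 as a member of the same family. Slc66a1, which exports cationic amino acids from lysosomes, read 5.36, 5.17 and 4.84 with LF3, 6.11, 5.98 and 6.03 with ICG-001, and 5.80, 5.81 and 6.04 with DMSO. The LF3 arrays were below all others, and the probe was detected on 1 of them. Slc66a1 fell by 0.76 with LF3 (limma adjusted p = 0.00212), a size that detection at background limits, and differed by -0.92 between the inhibitors (adjusted p = 0.000213).

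Slc66a2 stood at 8.93, 8.79 and 8.35 with LF3, 9.27, 9.24 and 9.47 with ICG-001, and 8.83, 8.52 and 8.72 with DMSO. Its ICG-001 arrays were above all others, and LF3 and DMSO overlapped. It rose by 0.63 with ICG-001 (limma adjusted p = 0.00494), LF3 minus DMSO was 0.00, and LF3 minus ICG-001 was -0.63 (adjusted p = 0.00487).

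Slc15a4, a lysosomal carrier of histidine and small peptides, was at 6.92, 7.31 and 7.40 with LF3, 7.67, 7.85 and 7.69 with ICG-001, and 7.31, 7.77 and 8.07 with DMSO. LF3 and ICG-001 arrays did not overlap, while the DMSO arrays spread over both. LF3 minus ICG-001 was -0.52 (limma adjusted p = 0.0324), but a second Slc15a4 probe gave -0.06. The call was lost without any 1 ICG-001 array (adjusted p = 0.0556 to 0.105) or without the first LF3 array (0.139), with both probes averaged (0.0807) and with no filter on dim probes (0.112). Slc17a5, which exports sialic acid from lysosomes, stood at 0.29 with LF3 (adjusted p = 0.135) and 0.32 with ICG-001 (adjusted p = 0.0788) and was not called.

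Of 7 measured carriers of sugars, inositol and vitamins, 2 were called in any comparison, Slc5a6 and Slc2a6, beside 57% of all genes. Slc2a1, the main glucose importer GLUT1, read 11.92, 11.94 and 12.06 with LF3, 11.98, 11.76 and 11.70 with ICG-001, and 11.77, 11.81 and 11.56 with DMSO. The LF3 arrays lay just above the DMSO arrays, and the ICG-001 arrays overlapped both. LF3 minus DMSO was 0.26, with a 95% interval from 0.00 to 0.52 (limma adjusted p = 0.148), and ICG-001 minus DMSO was 0.10 (adjusted p = 0.558).

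Slc2a6, a glucose carrier of lysosomes, stood at 7.66, 7.70 and 7.33 with LF3, 8.07, 8.09 and 7.95 with ICG-001, and 8.39, 7.92 and 8.06 with DMSO. The LF3 arrays were below all others, the third the lowest. It fell by 0.56 with LF3 (limma adjusted p = 0.0146) and differed by -0.48 between the inhibitors (adjusted p = 0.0182). Without the third LF3 array the fall against DMSO missed the threshold (adjusted p = 0.0507), as did the difference between inhibitors (0.0683), which was also lost without the first or second ICG-001 array (0.0532 and 0.0599). Slc50a1, which exports sugars, was 0.26 higher with LF3 (adjusted p = 0.104), with all its LF3 arrays above its DMSO arrays. Slc2a8, Slc45a2 and Slc45a4 were not called, and Slc45a2 was not above background on any LF3 array.

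Of the Golgi nucleotide sugar family, Slc35a4, whose substrate is not settled, was at 10.003, 10.034 and 9.855 with LF3, 10.427, 10.515 and 10.488 with ICG-001, and 10.305, 10.233 and 10.367 with DMSO. The groups did not overlap, with LF3 lowest and ICG-001 highest. LF3 minus ICG-001, -0.51, passed (limma adjusted p = 0.00243) and held under every alternative run. LF3 minus DMSO, -0.34, passed with all arrays (adjusted p = 0.0421) but was lost without any 1 of the 9 (0.0554 to 0.134). The CMP-sialic acid carrier Slc35a1 and the UDP-sugar carriers Slc35a2 and Slc35a3 were called in no comparison, and a second probe of Slc35a1 gave -0.37 between the inhibitors (adjusted p = 0.0352).

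The urea carrier Slc14a1, the single measured member of its class, read 10.75, 10.91 and 10.62 with LF3, 10.34, 10.26 and 10.29 with ICG-001, and 10.86, 10.75 and 10.61 with DMSO. ICG-001 arrays were below all others. Slc14a1 fell by 0.45 with ICG-001 (limma adjusted p = 0.0101), and by 0.62 and 0.52 in its other probes. For LF3 minus DMSO the brightest probe gave 0.02, while the others gave -0.38 (adjusted p = 0.0562) and -0.52 (adjusted p = 0.0247). LF3 minus ICG-001, 0.46 (adjusted p = 0.00756), was lost when all probes were averaged (0.109) and under median scaling (0.12).

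**Figure D4:**
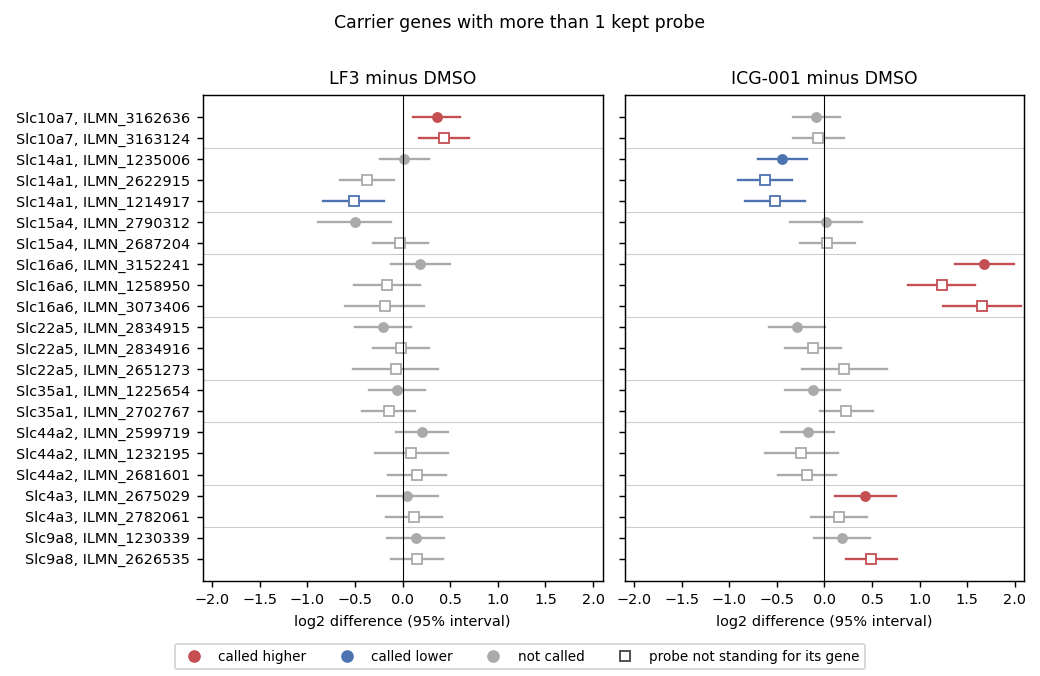
Fitted log2 difference (horizontal axis, with its 95% interval) for every kept probe of the 9 carrier genes with more than 1 kept probe, for LF3 minus DMSO and ICG-001 minus DMSO. Filled circles stand for the gene and open squares are its other probes. The 3 Slc16a6 probes rise together with ICG-001. Only 1 probe passed for Slc14a1 with LF3, and only 1 each for Slc4a3 and Slc9a8 with ICG-001. The Slc15a4 probes stood at -0.50 and -0.03 with LF3, and neither passed. Differences between probes were not tested.

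Genes that power, anchor or regulate the carriers were described from 6 lists, by count. Subunits of the vacuolar proton pump, which acidifies the vesicles where proton-coupled carriers work, were measured for 16 of 22 genes on the array. With LF3 4 rose and 0 fell, with ICG-001 2 rose and 3 fell, and between the inhibitors 5 were higher and 2 lower with LF3. For these and the following lists, the background of all genes was 10.9% higher and 11.3% lower with LF3, 18.7% higher and 18.9% lower with ICG-001, and 20.2% higher and 19.5% lower for LF3 minus ICG-001. The 4 that rose with LF3 were Atp6v0b, Atp6v1d, Atp6v1f and Atp6ap2, of which those other than Atp6v0b were picked after their values were seen. Atp6v0b, of its membrane sector, rose with both, by 0.59 with LF3 (limma adjusted p = 0.003) and 0.67 with ICG-001 (adjusted p = 0.000508). Atp6v1e1, of the stalk, read 11.46, 11.48 and 11.53 with LF3, 10.73, 10.83 and 10.92 with ICG-001, and 11.23, 11.18 and 11.28 with DMSO. It fell with ICG-001 by 0.40 (adjusted p = 0.0106).

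Scaffolds and ancillary proteins of carriers gave 7 measured genes of 11, of which 1 rose with LF3 and 1 fell with ICG-001. The one that fell was Slc9a3r2, the PDZ scaffold NHERF2, with 7.29, 7.18 and 7.08 on the LF3 arrays, 5.97, 5.94 and 5.84 on the ICG-001 arrays, and 6.73, 7.18 and 7.10 on the DMSO arrays. The ICG-001 arrays were below all others, at a log2 difference from DMSO of -1.09 (limma adjusted p = 3.29e-05). Ahcyl1, the bicarbonate transport regulator IRBIT, rose by 0.46 with LF3 (adjusted p = 0.013). It stood at 0.20 with ICG-001 (adjusted p = 0.183) and did not pass between the inhibitors (adjusted p = 0.0955).

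Carbonic anhydrases, which supply bicarbonate and protons to exchangers such as Slc4a2, were measured for 4 of 12 genes, of which 1 rose and 1 fell with LF3 and 2 fell with ICG-001. Car9, a membrane form induced by hypoxia, was at 8.14, 6.68 and 7.34 with LF3, 6.79, 5.66 and 6.38 with ICG-001, and 8.20, 8.93 and 8.74 with DMSO. All arrays of both inhibitors were below all DMSO arrays, and those of each inhibitor spread over more than a log2 unit. It fell by 1.23 with LF3 (limma adjusted p = 0.0167) and by 2.35 with ICG-001 (adjusted p = 9.42e-05). The mitochondrial Car5b fell by 0.84 with ICG-001 (adjusted p = 0.000276). The gene that rose with LF3, named after its value was seen, was Car13, by 0.32 (adjusted p = 0.0491). Car13 stood at 0.23 with ICG-001 (adjusted p = 0.111) and did not pass between the inhibitors (adjusted p = 0.551).

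Of 9 measured kinases and partners of the WNK and SGK pathways, which act on ion carriers, 1 rose with LF3, and 1 rose and 1 fell with ICG-001. Sgk1 rose by 0.77 with ICG-001 (limma adjusted p = 0.00189) and stood at -0.24 with LF3. Oxsr1 rose by 0.83 with LF3 (adjusted p = 0.00212) and stood at 0.07 with ICG-001. The ubiquitin ligase Nedd4, which marks ion carriers for removal and was named after its value was seen, fell by 0.62 with ICG-001 (adjusted p = 0.0153). Glucose trapping and lactate genes gave 5 measured of 11, of which 1 fell with LF3, and 1 rose and 3 fell with ICG-001. Hexokinase Hk2 rose by 0.46 with ICG-001 (adjusted p = 0.00922), and Txnip, which lowers glucose uptake, fell by 0.58 with LF3 (adjusted p = 0.00965) and 0.37 with ICG-001 (adjusted p = 0.0489). Hk1 and Ldha, also named after the fact, fell with ICG-001 by 0.46 and 0.41. With LF3 they stood at -0.19 and -0.27, which did not pass, and neither passed between the inhibitors. Of 3 measured sodium pump genes of 10, the subunit Atp1b3, also named after the fact, fell by 0.40 with LF3 (adjusted p = 0.0383). With ICG-001 the regulator Fxyd5 rose by 0.85 and the subunit Atp1b1 fell by 0.63 (adjusted p = 0.00769). Atp1b3 stood at -0.23 with ICG-001 (adjusted p = 0.173) and Atp1b1 at -0.45 with LF3 (adjusted p = 0.063). Neither subunit passed between the inhibitors.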

How the data were processed

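Total RNA of 9 samples was hybridised to Illumina mouse bead arrays. Per the file headers, each array has an intensity column and a detection p-value column in the deposited table. The submitters' processing notes name GenomeStudio 2010.1. The deposited intensities are linear and not normalized between arrays, and the detection p-value columns, which carry no sample name, were matched by place. Groups came from the titles and treatment labels.

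The function neqc of limma 3.58.1 in R 4.3.3 corrected background by normexp (offset 16), took log2 and quantile-normalized the arrays. The offset shrinks differences of dim probes. Probes detected at p under 0.01 on at least 3 of 9 arrays were kept (10830, 42.1%), and the probe with the highest mean stood for a gene. All arrays entered 1 limma fit, with two-sided p-values adjusted by Benjamini-Hochberg over all kept probes and a gene called at an adjusted p under 0.05. The fit was tested on simulated data. The number of arrays limits the precision. Levels of different probes are not comparable.

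Symbols came from the platform annotation. All 172 carriers matched RefSeq by gene ID. The members, role classes and partner lists were chosen with earlier results of these data known. The rule for naming genes took the 10 largest called rises and falls against DMSO, the 6 largest in each direction for LF3 minus ICG-001, the carrier of each role class with the lowest F test p, those called in opposite directions, a fixed set of 16 carriers, and the 2 genes of each partner list with the lowest F test p. The remaining measured carriers are named only to account for them, and Slc44a2 and others described beyond it were picked with their values known. Alternatives changed the background correction, offset, normalization, probe filter, probe summary, variance model and array weights, used the authors' processed intensities, or left out 1 array.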

Additional observations from a re-analysis of the deposited data

How the results depend on the processing

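No solute carrier difference that was called turned its sign in any alternative run. Of 49 carrier calls in the 3 comparisons, 29 were kept in every alternative and 20 were lost in at least 1. Leaving out 1 array at a time, the LF3 minus DMSO comparison called 6 to 11 carriers, beside 12% to 25.7% of all genes. ICG-001 minus DMSO called 15 to 17, beside 29.5% to 40.2% of all genes. LF3 minus ICG-001 called 16 to 23, beside 30.8% to 43.1%. Median scaling lost 13 calls and gained 14, array weights lost 1 and gained 11, and the authors' processed intensities lost and gained 0. The labels do not say whether arrays with the same replicate number share a culture or day. Deviations of same-numbered arrays correlated at -0.232 to 0.143, and those of different-numbered arrays at -0.218 to 0.339. With 3 arrays a group, these values cannot settle it. With the replicate block the LF3 minus DMSO comparison called 9 solute carrier genes, beside 19.8% of all genes. ICG-001 minus DMSO called 16, beside 35.8%, and LF3 minus ICG-001 called 22, beside 37.9%. The block lost the LF3 minus DMSO calls of Slc10a7, Slc19a2 and Slc35a4 (adjusted p = 0.0591, 0.0525 and 0.0726) and gained that of Slc15a4 (0.0282). A wider symbol rule, added after the data were seen, gave 15, 21 and 30 of 61 in that order. The shares of all genes were 22.2%, 37.6% and 39.7%. The chip as a block was not run, since the headers name no chips. Signal over background limits the 8 carriers not detected on every array.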
